A study of Mus musculus with 6 samples.

Results

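The genes described here encode galanin and other neuropeptides found in the pituitary: Gal, Vip, Nts, Tac1, Nmb, Nmu, Penk, Npy, Cck and Adcyap1. They were taken as all non-control probes annotated with a RefSeq accession of one of these 10 genes, which gave 11 of the 55681 probes on the array, 2 of them for Nmb and 1 for each other gene. The spread of these genes within each group and their difference between the groups had been seen in these data when they were chosen, so both are given as descriptions with no test. The arrays came from whole pituitaries of 3 female mice of genotype Jmjd2a-/- (KO) and 3 littermate females of genotype Jmjd2a+/+ (WT), 1 array per animal. Both groups were virgin, 8 weeks old and on a C57BL6 background, and both had their oestrous cycle started with a stud male's soiled bedding 24 h before the glands were taken. Jmjd2a, now named Kdm4a, encodes an enzyme that removes methyl groups from histone H3. The sources used here do not give which part of the gene was deleted, or in which cells.

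Neuropeptides are cut from longer precursor proteins by convertases in secretory granules and act on G protein-coupled receptors. In the rodent pituitary galanin is made largely by lactotropes, the prolactin cells, its gene is strongly induced by oestrogen, and it acts back on prolactin release. Vasoactive intestinal peptide (Vip), PACAP (Adcyap1), neurotensin (Nts), substance P (Tac1) and cholecystokinin (Cck) are known as local or hypothalamic modulators of pituitary hormone release, and several of these genes are classic targets of cyclic AMP signalling.

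The sequences below show the cyclic AMP response element core, TGACG, in the promoter windows of these genes, because regulation by cyclic AMP is a property that the choice of genes did not use. The windows were those of RefSeq on GRCm38.p6, from 250 bases before the gene's start to 50 bases after it, and 9 of the 10 genes have one. Penk has no entry. Either strand was searched, so the core appears as TGACG or CGTCA, in capitals. TGACG is also part of the full element TGACGTCA. For Tac1, which holds the core at 2 places, the one nearer to the start is shown.
Gal, chr19:3414509-3414537, minus strand: gcgctgagccggTGACGcggcagctccca
Vip, chr10:5639127-5639155, plus strand: ggatcactactgTGACGtctttcggggag
Adcyap1, chr17:93198914-93198942, plus strand: ggactaggatgcTGACGtcttttactgat
Cck, chr9:121495725-121495753, minus strand: cctgctggactgCGTCAgcactgggtaaa
Tac1, chr6:7555006-7555034, plus strand: gctctacaggctCGTCAcgcctgagataa
Nmu, chr5:76363875-76363903, minus strand: agcaggtccgggTGACGccagggagccag
Nts, chr10:102490568-102490596, minus strand: attagggaagatCGTCActttccatcaag
The core lay in the windows of 7 of the 9 genes, against 23% of the 27025 gene symbols with a window, and was not found in those of Nmb and Npy. Counted from the gene's start, its first base stood at position 20 in Gal, -79 in Vip, -91 in Adcyap1, -47 in Cck, -43 in Tac1, -114 in Nmu and -166 in Nts. The full element TGACGTCA was found in 0 of the 9 genes (2.03% of all symbols). The AP-1 site TGACTCA, read on either strand, was found in 2, those of Nts and Nmu (5.95% of all symbols). The palindromic oestrogen response element was found in 0 of the 9 (0.074% of all symbols). These matches describe letters in a window and were not measured as binding.

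The level of a probe is given as log2 of its background-subtracted signal minus the 75th percentile of its array, so that 0 is the level that 75% of the probes on that array do not exceed. The targeted gene's brighter probe read 1.45, 1.20 and 1.36 in the 3 KO pituitaries, against 2.14, 1.90 and 1.85 in the 3 WT pituitaries. The groups did not overlap (log2 difference -0.62, SE 0.14, limma adjusted p = 0.237; exact two-sided permutation p = 0.1, the smallest that 3 arrays against 3 allow). Its other probe was well above background on 2 of the 6 arrays. A probe outside the deleted part would check nothing, and the position of the deletion is not stated. The genes for prolactin, growth hormone, ACTH, TSH, LH and FSH lay well above background on all 6 arrays, and the tissue is labelled pituitary. Between 34634 and 37586 probes were well above background on the KO arrays and between 34751 and 40567 on the WT arrays. Testing asked for 3 or more arrays above background, and 9 of the 10 neuropeptide genes passed, all but Npy. The lowest level at which a probe counted as such ran from -5.27 to -4.74 on KO arrays and from -4.76 to -4.47 on WT arrays. Across features, r was 0.993 between KO arrays and 0.983 to 0.986 between WT arrays.

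Galanin mRNA differed widely among the WT pituitaries and hardly among the KO pituitaries. Gal read 5.55, 5.63 and 5.37 in KO replicates 1 to 3, against 2.47, 6.51 and 4.32 in WT replicates 1 to 3. WT replicate 2 was the highest of the 6 arrays and WT replicate 1 the lowest, and all 3 KO values lay between WT replicates 2 and 3. In signal before scaling, Gal gave 11588.5, 11587.5 and 12574.3 intensity units in KO, against 945.948, 28498.3 and 3870.04 in WT. The KO pituitaries spanned 1.20-fold after scaling and the WT pituitaries 16.5-fold. The standard deviation was 0.13 in KO and 2.02 in WT, a ratio of 15.1 (WT over KO). Of the 26887 genes and features tested, 20, Gal among them, had a WT standard deviation at least as large, while 44.9% had a smaller KO standard deviation than Gal. In whole glands, a change in the number of cells that make a transcript and a change in transcript per cell cannot be told apart.

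The mean level of Gal was 5.51 ± 0.13 in KO and 4.43 ± 2.02 in WT (SD, n = 3 each). The log2 difference was 1.08 (SE 0.90; 95% interval -1.05 to 3.21), a 2.11-fold higher mean in KO. Leaving out WT replicate 1 or WT replicate 2 moved this value. Without WT replicate 1 it was 0.10, and without WT replicate 2 it was 2.12. By position on the slide, row 1, with 2 arrays of each group, gave 2.06 (SE 0.61), whereas row 2, with KO replicate 2 and WT replicate 2 alone, gave -0.88. The WT standard deviation was 1.54 without WT replicate 1, 1.31 without WT replicate 2 and 2.86 without WT replicate 3, above the KO value in each case.

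**Figure D1:**
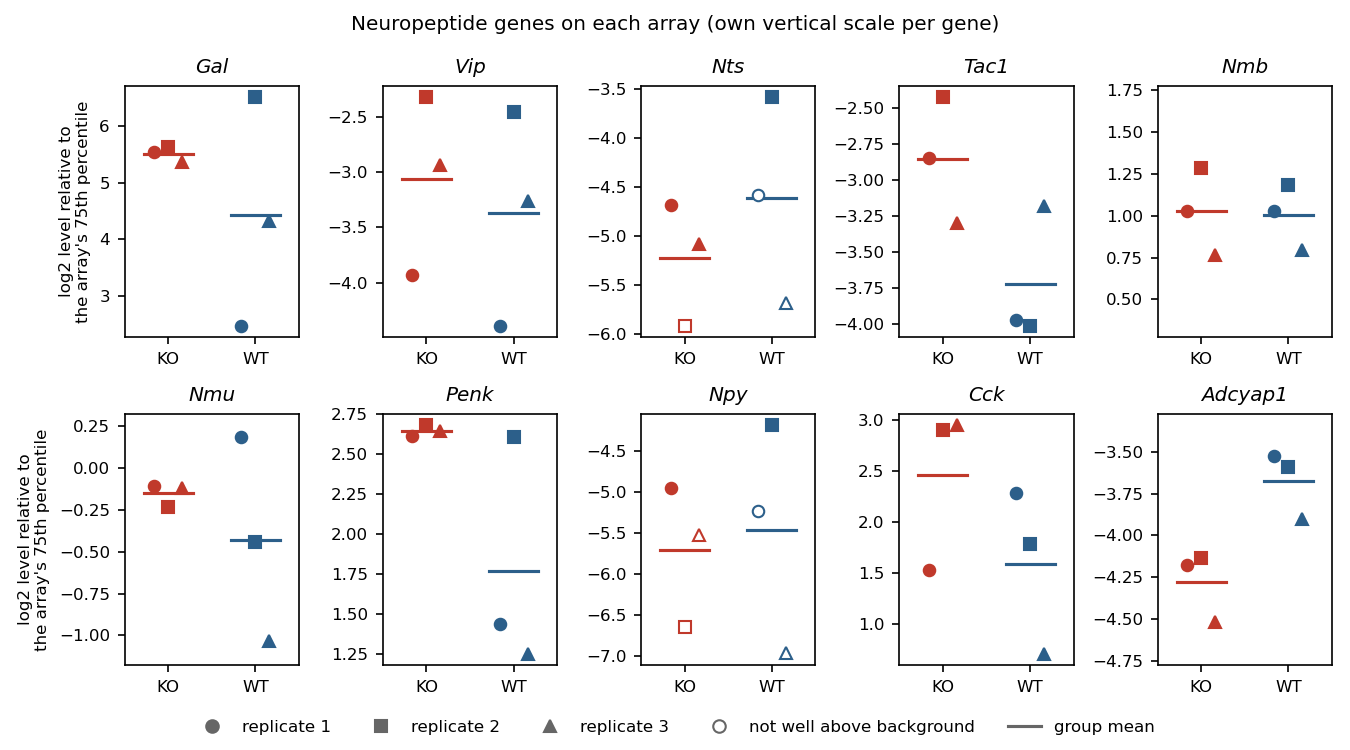
Level of each neuropeptide gene on every array, as log2 relative to the array's 75th percentile, with KO on the left and WT on the right of each panel and a separate vertical scale per gene. Points are single animals, open points are not well above background and lines are group means. The 3 KO points of Gal, Nmu and Penk lie close together while their WT points are spread out.

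Penk, the precursor of the enkephalins, showed the same contrast in spread. It read 2.61, 2.68 and 2.65 in KO, against 1.44, 2.61 and 1.25 in WT. All KO values lay at or above the WT values, but KO replicate 1 and WT replicate 2 were equal to 2 decimals, so the groups were separated by a margin far smaller than the spread of either. The standard deviations were 0.034 in KO and 0.74 in WT, a ratio of 21.7 (WT over KO). Of all features, 3.86% had a smaller KO standard deviation than Penk, and 95% had a smaller WT standard deviation. The mean was 2.65 in KO and 1.77 in WT, a log2 difference of 0.88 (SE 0.34; 95% interval 0.07 to 1.69). Slide row 1 gave 1.29 (SE 0.17) and row 2, with 1 array of each group, gave 0.07. Without WT replicate 2 the difference was 1.30 and the WT standard deviation 0.13.

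Nmu, which encodes neuromedin U, was the third gene with close KO values. It read -0.11, -0.23 and -0.12 in KO, against 0.18, -0.44 and -1.04 in WT. As for Gal, the KO values all lay within the WT range, here between WT replicates 1 and 2. The standard deviations were 0.07 in KO and 0.61 in WT, a ratio of 8.63 (WT over KO). KO minus WT was 0.28 (log2, SE 0.29). It was -0.02 without WT replicate 3, the lowest array, and 0.59 without WT replicate 1, the highest. The order of the WT arrays was not the order seen for Gal: WT replicate 1 was highest for Nmu and lowest for Gal.

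Wide WT spread and narrow KO spread were not general among the neuropeptide genes. Across all features tested the median standard deviation was 0.15 in KO and 0.23 in WT, and WT was the more variable group for 69.7% of features. It was also the more variable group for 6 of the 9 neuropeptide genes tested. KO values lay wholly inside the WT range for 2 of the 9, Gal and Nmu, against 23.6% of all features. WT replicate 2 was the highest WT array for 5 of the 9 genes and WT replicate 3 the lowest for 6, against 36.3% and 35.4% of all features.

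**Figure D2:**
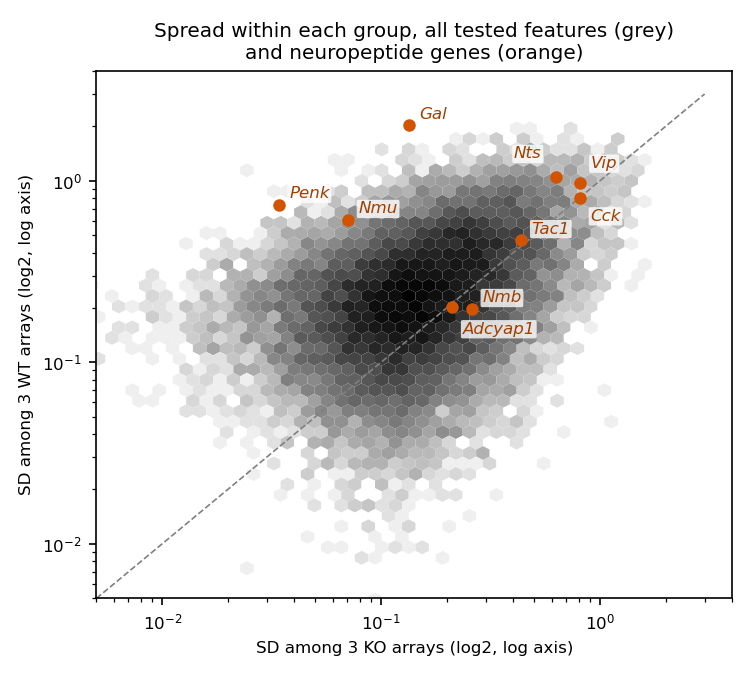
Standard deviation of the log2 level among the 3 KO arrays (horizontal, log axis) and among the 3 WT arrays (vertical, log axis) for all tested features (grey, darker where there are more) and for the neuropeptide genes (orange). The dashed line marks equal spread. Gal, at 0.13 in KO and 2.02 in WT, Penk and Nmu lie far above the line, and the other 6 genes lie closer to it.

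Cck had similar standard deviations in the groups, and in KO the spread came from 1 array. Its probe read 1.53, 2.90 and 2.95 in KO, against 2.28, 1.78 and 0.71 in WT. KO replicates 2 and 3 were above all WT arrays, and KO replicate 1 was below WT replicates 1 and 2. The standard deviation was 0.81 in KO and 0.80 in WT. It was 0.03 in KO without KO replicate 1, and 0.35 in WT without WT replicate 3. KO minus WT was 0.87 on the log2 scale (SE 0.51; 95% interval -0.34 to 2.08), with 1.33 without KO replicate 1 and 0.43 without WT replicate 3.

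Tac1, the precursor of substance P and neurokinin A, was dim on every array. It read -2.84, -2.43 and -3.30 in KO, against -3.98, -4.02 and -3.18 in WT. KO replicates 1 and 2 were above all WT arrays, while KO replicate 3 was below WT replicate 3. The log2 difference was 0.87 (SE 0.30; 95% interval 0.15 to 1.58). It was 0.10 with another background correction (normexp) and 0.28 in the authors' value table. Slide row 1 gave 0.51, and row 2, with 1 array of each group, gave 1.59.

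Vip, whose peptide stimulates prolactin release, was likewise dim. It read -3.93, -2.32 and -2.94 in KO, against -4.39, -2.46 and -3.26 in WT. In both groups replicate 1 was the lowest and replicate 2 the highest. The numbers are not stated to mark pairs of animals. The standard deviations were 0.81 in KO and 0.97 in WT, larger than those of 98.6% and 97.9% of all features. Under normexp they were 0.27 in KO and 0.11 in WT. The values deposited by the authors gave 0.27 in KO and 0.28 in WT. Without KO replicate 1 the KO standard deviation was 0.44. The log2 difference was 0.31 (SE 0.57), and it was -0.07 with normexp. It was 0.74 without KO replicate 1 and -0.06 without KO replicate 2, against -0.21 without WT replicate 1 and 0.76 with WT replicate 2 left out.

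Nmb, which encodes neuromedin B, had the smallest difference of the 9 genes tested. Its brighter probe read 1.03, 1.28 and 0.77 in KO, against 1.03, 1.18 and 0.79 in WT. The values of both groups overlapped almost completely. The log2 difference was 0.02 (SE 0.18; 95% interval -0.40 to 0.45), which leaves room for a mean in KO up to 0.45 higher or 0.40 lower on the log2 scale. The other Nmb probe read 0.79, 1.03 and 0.57 in KO, against 0.88, 1.01 and 0.57 in WT, with a difference of -0.02 (SE 0.18). The sign of the brighter probe's difference was negative under several alternatives, with -0.11 without KO replicate 2 the lowest.

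Adcyap1, the precursor of PACAP, was the one neuropeptide gene with all KO values below all WT values. It read -4.18, -4.14 and -4.52 in KO, against -3.53, -3.59 and -3.91 in WT. The log2 difference was -0.60 (SE 0.17; 95% interval -0.999 to -0.21). The probe was well above background on all 6 arrays but dim. Before scaling it gave 13.7, 13.3 and 13.3 intensity units in KO, against 14.9, 26.0 and 12.9 in WT, and these values overlapped. With normexp the difference was -0.26 and with quantile normalization -0.31.

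Nts and Npy were near or below the detection limit. Nts read -4.69, -5.92 and -5.08 in KO, against -4.59, -3.59 and -5.68 in WT. It was well above background in KO replicates 1 and 3 and in WT replicate 2, so values on the other arrays are only bounds. The difference of -0.61 (SE 0.55) was 0.25 in slide row 1 and -2.33 in row 2, and it was -0.27 without KO replicate 2, -0.10 without WT replicate 2 and -1.14 without WT replicate 3. Npy, the gene of neuropeptide Y, read -4.96, -6.64 and -5.53 in KO, against -5.24, -4.19 and -6.97 in WT. It was well above background on 1 array of each group, KO replicate 1 and WT replicate 2, and did not enter the fit. WT replicate 2, which had the most probes above background, was thus the WT array in which both genes were detected, and the part of array sensitivity in this was not tested.

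Of the 9 genes tested, 7 had a higher mean in KO and 2, Nts and Adcyap1, a lower one, against 39% and 61% of all features. The median difference of the 9 was 0.31, and that of all features -0.08. The groups did not overlap for 2 of the 9, Penk (KO above WT) and Adcyap1 (KO below WT). Over all features this was 20.6%, with 7.14% above and 13.5% below. Limma called 0 of the 26887 features at an adjusted p under 0.05 (0%), and 12.8% had an unadjusted p under 0.05, 3.89% higher and 8.92% lower in KO. Of these, 69.6% were lower in KO, against 42.9% after quantile normalization, 46.8% with the values the authors deposited, 56.7% with arrays centred on their median and 79.5% without a filter on dim probes. Since the genes were chosen on this contrast, nothing is read from these counts.

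**Figure D3:**
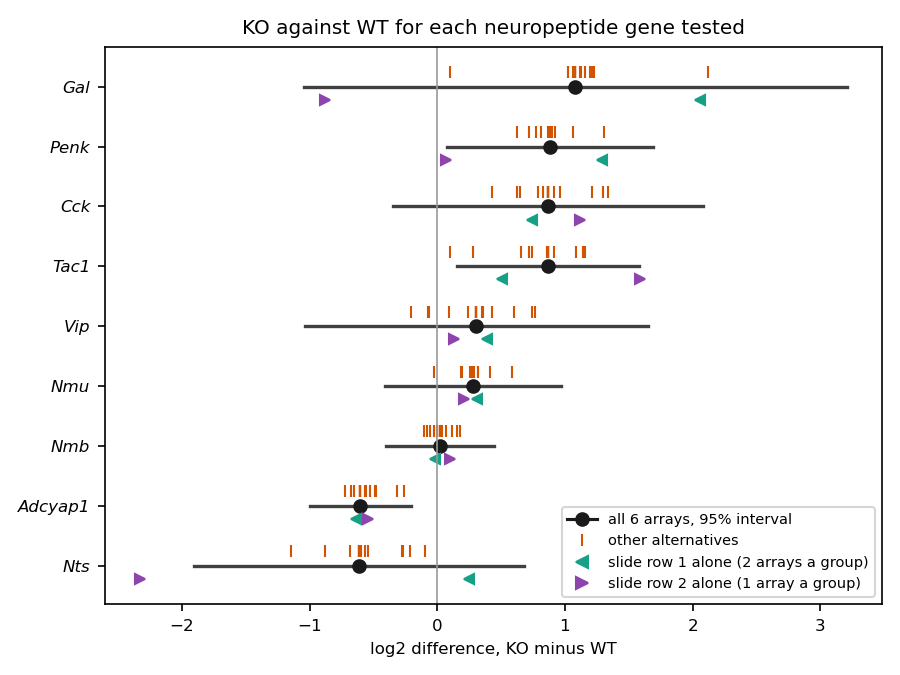
Log2 difference in level, KO minus WT, for the 9 neuropeptide genes tested. Black points and bars are the value from all 6 arrays and its 95% interval, orange ticks the processing alternatives and the fits without 1 array, and triangles each slide row alone. For Gal the rows lie on opposite sides of 0, at 2.06 and -0.88.

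Gal was set beside the markers of pituitary cell types. The lactotrope markers Prl, Drd2 and Pou1f1 were all well above background, and their summed level (log2 of the summed signal) ran from 8.82 to 9.09 in KO and from 8.81 to 9.60 in WT. This sum is nearly that of Prl alone, which ran from 8.81 to 9.08 in KO and from 8.80 to 9.60 in WT. Prl differed by -0.26 (SE 0.22) and Pou1f1 by 0.14 (SE 0.13), both with overlap. Drd2 was higher in KO without overlap (difference 0.31, SE 0.12, limma adjusted p = 0.368). WT replicate 1, the lowest array for Gal, had the highest lactotrope sum. This was not particular to lactotropes, because the summed markers of somatotropes (growth hormone cells) and corticotropes (ACTH cells) were also highest in that array. Those of melanotropes, thyrotropes and gonadotropes were not. The somatotrope and corticotrope sums likewise rest almost wholly on Gh and Pomc. Of the other corticotrope markers, Tbx19 differed by -0.16 with overlap. Avpr1b (-0.58, SE 0.11, limma adjusted p = 0.226) and Crhr1 (-0.52, SE 0.16, limma adjusted p = 0.319) lay below WT without overlap, as did 13.5% of all features. The 75th percentile taken off was lowest in WT replicate 1 (171.3 intensity units) and highest in WT replicate 2 (313). Over the 6 arrays the lactotrope and corticotrope sums ran in exactly the reverse order of this percentile, and the somatotrope sum nearly so. These sums therefore cannot be told apart from the scaling, and are not read as amounts of these cells. The part of this scaling in the sums was not tested. Gonadotrope markers varied with Gal among WT arrays through Fshb, the beta subunit of FSH. Fshb read 4.40, 4.41 and 5.64 in KO, against 2.94, 6.43 and 3.85 in WT, so its WT arrays ran in the same order as those of Gal. The other gonadotrope markers did not share this spread: Lhb read 4.21, 4.22 and 4.25 in KO, against 4.46, 3.80 and 4.33 in WT, and the values of Gnrhr and Nr5a1 ranged from 1.43 to 2.25 in KO and from 1.96 to 2.32 in WT. The summed gonadotrope level ran from 5.53 to 6.27 in KO and from 5.27 to 6.78 in WT. Fshb differed by 0.41 (SE 0.86, limma adjusted p = 0.841), and by -0.32 without WT replicate 1 and 1.42 without WT replicate 2. By slide position it differed by 1.62 in row 1 and by -2.02 in row 2, which holds 1 array of each group. The part of gonadotropes in the spread of Gal was not tested.

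Markers of other cells differed among the WT arrays too. The summed neutrophil markers S100a8, S100a9, Ngp and Camp ran from 0.21 to 0.71 in KO and from 0.86 to 3.80 in WT, highest in WT replicate 3. The summed Schwann cell markers ran from 3.63 to 3.74 in KO and from 3.50 to 4.15 in WT, again highest in WT replicate 3. That array was the lowest for Penk, Nmu and Cck. Without it the differences were 0.62 for Penk, -0.02 for Nmu and 0.43 for Cck. Markers of the posterior lobe and of neurons were mixed in direction, and 0 were called by limma. The summed markers of pituicytes, the glia of the posterior lobe, ran from 0.75 to 0.84 in KO and from 0.47 to 0.72 in WT, without overlap, although 3 of the 5 had a lower mean in KO. The pituicyte marker Rax read -0.21, -0.36 and -0.005 in KO, against -0.76, -0.96 and -0.44 in WT (difference 0.53, SE 0.175, limma adjusted p = 0.339). The summed neuron markers ran from 4.21 to 4.36 in KO and from 4.03 to 4.34 in WT, and 5 of the 7 tested had a higher mean in KO. Slc17a6, a glutamate transporter of neurons, read 0.91, 0.91 and 1.24 in KO, against -0.46, 0.56 and 0.30 in WT, without overlap (difference 0.89, SE 0.27, limma adjusted p = 0.317). Gad2, which makes the transmitter GABA, differed by 0.75 with overlap (SE 0.26, limma adjusted p = 0.344). Other markers went the other way. The neuron marker with the smallest p, Avp, differed by -1.21 without overlap (SE 0.35, limma adjusted p = 0.312). The pituicyte marker Col25a1 differed by -0.33, also without overlap (SE 0.17, limma adjusted p = 0.454). The part of these cells in the results was not tested.

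The genes whose levels ran most like Gal over the 6 arrays were Lilrb4a, Gm10941, Map3k15, Sec23a and Hmcn1, with Pearson's r of 0.994, 0.991, 0.990, 0.988 and 0.986 and Spearman's rho of 0.943 for the first and 0.771 to 0.829 for the others. They are the top of 16457 genes ranked on 6 points that share their arrays, and 101 genes exceeded 0.95. With the 2 arrays farthest from the median left out, r was 0.983, 0.905, 0.936, 0.900 and 0.837 in the same order. Hmcn1, which encodes an extracellular matrix protein, read -2.40, -2.65 and -2.59 in KO, against -4.72, -2.20 and -3.40 in WT. In WT replicate 1, Hmcn1 and Map3k15 (-4.67) lay below the detection limit of that array, -4.47. Their values there are only bounds, and their r with Gal rests in part on them. Sec23a, a coat protein of vesicles leaving the endoplasmic reticulum, had its WT arrays in the same order within a far smaller range, from -0.38 to -0.36 in KO and from -0.64 to -0.30 in WT.

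**Figure D4:**
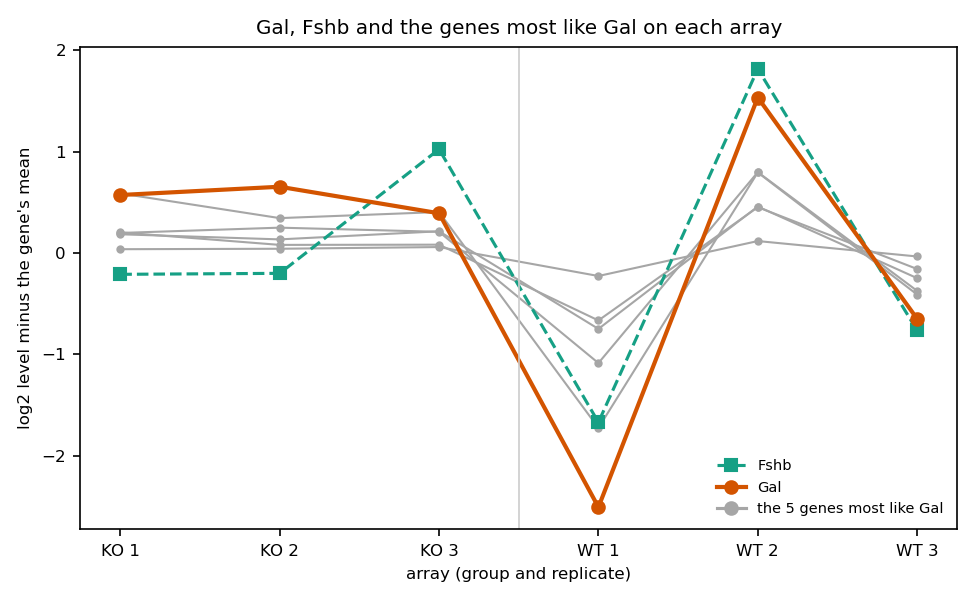
Level of Gal (orange), Fshb (green, dashed) and the 5 genes most like Gal (grey) on each array, as the log2 level minus the gene's mean over the 6 arrays. KO arrays are on the left and WT arrays on the right. All 7 genes are lowest in WT replicate 1 and highest in WT replicate 2, and KO replicate 3 is well above the other KO arrays for Fshb alone. Hmcn1 and Map3k15 were below the detection limit in WT replicate 1.

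For Penk the nearest genes were Ddo, Snx13 and Gm9961, with r of 0.9996, 0.998 and 0.996 over the 6 arrays, and 161 genes exceeded 0.95. Without the 2 arrays farthest from the median, r was 0.743, 0.780 and -0.005 in the same order, so for Gm9961 the likeness rested on those arrays. Gm9961 read -4.62 in WT replicate 1 and -4.75 in WT replicate 3. These values lay below the detection limits of those arrays, -4.47 and -4.74, and are only bounds. Ddo, which encodes D-aspartate oxidase, read 0.74, 0.75 and 0.76 in KO, against 0.41, 0.74 and 0.35 in WT. The nearest genes to Nmu were Neil2, Jak2 and Amph (r from 0.984 to 0.993), to Vip Smc6, Sec14l4 and Prox1 (0.987 to 0.998) and to Cck Cox8b, Spint1 and Rem1 (0.985 to 0.991). For Tac1 they included Ccnt1 and Socs7 (0.975 and 0.972), and they were for Nmb Mcoln3, Ccdc130 and Shisal2a (0.971 to 0.976) and for Nts Vpreb2, Foxf1 and Ap4e1 (0.988 to 0.994). Those of Adcyap1 were 3 RIKEN transcripts, 1700096K18Rik, 4933436H12Rik and 4921531P14Rik (0.990 to 0.997).

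Of 24 receptor genes for these peptides, 15 could be tested, 5 with a higher and 10 with a lower mean in KO (39% and 61% of all features), and 0 were called by limma. At an unadjusted p under 0.05, 0 were higher and 2 lower, near the 3.89% and 8.92% of all features, and the median difference was -0.16, against -0.08 for all features. With quantile normalization the median of the receptors was 0.05. Oprk1, the kappa opioid receptor, read -4.86, -4.86 and -4.53 in KO, against -3.74, -2.60 and -3.28 in WT, without overlap. It was well above background on 2 KO arrays and all 3 WT arrays, and the log2 difference was -1.55 (SE 0.29, limma adjusted p = 0.224), with -0.49 under normexp. Galr3, a galanin receptor, read -2.28, -1.88 and -2.07 in KO, against -1.77, -1.33 and -1.01 in WT, a difference of -0.71 (SE 0.22, limma adjusted p = 0.323). Its WT values did not follow the order of Gal.

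Among the other receptors, groups overlapped for all tested genes except Ntsr1. Ntsr1, a neurotensin receptor, differed by -0.29 (SE 0.12, limma adjusted p = 0.388), but by 0.05 with quantile normalization. Galr2, the other galanin receptor that could be tested, differed by -0.16 (SE 0.36) and passed the background criterion on 2 KO and 2 WT arrays. Oprm1, the mu opioid receptor, which binds enkephalins, read 3.14, 3.35 and 3.20 in KO, against 3.39, 2.95 and 3.01 in WT, a difference of 0.11 (SE 0.16). Galr1, Tacr1, Tacr3, Nmbr, Nmur1, Nmur2, Oprd1, Npy2r and Npy5r did not pass the filter on dim probes.

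Among 36 further neuropeptide precursor genes, 23 could be tested, 12 with a higher and 11 with a lower mean in KO, against 39% and 61% of all features. Their median difference was 0.03 (-0.13 to 0.13 over the alternatives), and limma called 0, with 1 higher and 4 lower at an unadjusted p under 0.05, against 3.89% and 8.92% of all features. The 1 higher gene was Grp, which passed the filter on dim probes through the KO arrays alone, so its direction was fixed by the filter. Avp, the vasopressin precursor, whose mRNA is made mainly in hypothalamic neurons that project to the posterior lobe, read -0.81, -0.69 and -0.52 in KO, against 1.03, -0.32 and 0.88 in WT. All KO values lay below all WT values, and the difference was -1.21 (SE 0.35, limma adjusted p = 0.312), with -0.37 in slide row 2 alone and -1.62 in row 1. Nppc, the C-type natriuretic peptide gene, read -3.34, -3.07 and -3.44 in KO, against -2.50, -2.99 and -1.87 in WT, a difference of -0.83 (SE 0.28, limma adjusted p = 0.344) that was -0.09 in row 2 alone and -0.54 without WT replicate 3. Grp, the gastrin-releasing peptide gene, read -4.11, -3.68 and -4.43 in KO, against -4.42, -5.31 and -5.20 in WT, with overlap. It was well above background on all KO arrays and on 0 of the WT arrays, so the WT values are only bounds. Its log2 difference of 0.90 is given without a test, because the filter fixed its direction. With normexp the Grp difference was -0.02.

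Pdyn and Oxt were picked after their values were seen. Pdyn, the dynorphin precursor whose peptides bind the receptor encoded by Oprk1, read 1.91, 1.78 and 1.89 in KO, against 2.08, 2.15 and 2.26 in WT, a difference of -0.30 (SE 0.12, limma adjusted p = 0.37). Oxt, the oxytocin precursor, read 3.57, 3.43 and 3.64 in KO, against 3.79, 3.50 and 3.26 in WT, with overlap and a difference of 0.03 (SE 0.17).

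**Figure D5:**
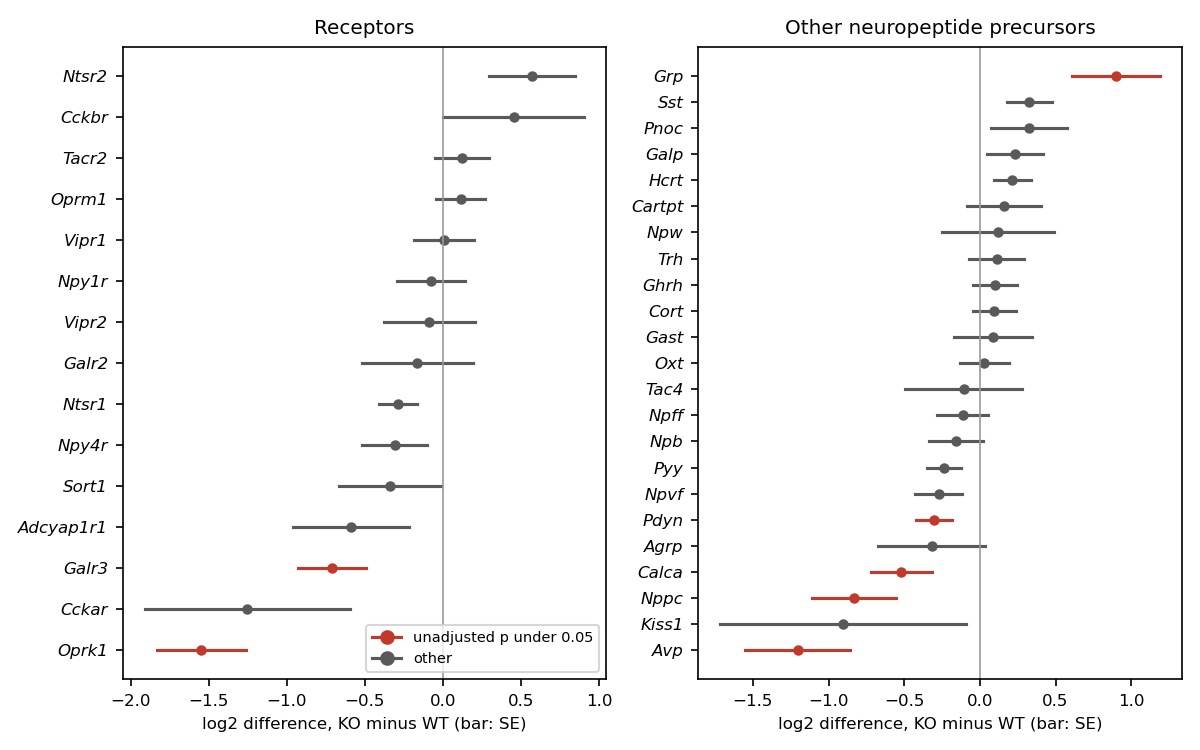
Log2 difference in level, KO minus WT, of the tested receptor genes (left) and of other neuropeptide precursor genes (right), with the standard error as bars and genes at an unadjusted p under 0.05 in red. Oprk1, at -1.55, and Avp, at -1.21, have the most negative value of their panel, and Grp has the highest value on the right, from a probe not well above background in WT.

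Most genes of the enzymes and helpers that process the precursors had a higher mean in KO. Of 11 genes tested, 9 had a higher and 2 a lower mean in KO, the median difference was 0.18, and limma called 0, with 3 higher and 0 lower at an unadjusted p under 0.05. Over all features, 39% were higher and 61% lower, the median was -0.08, and 3.89% were higher and 8.92% lower at that p. Pcsk1n, which encodes an inhibitor of the convertase PC1, read 7.09, 7.20 and 7.25 in KO, against 6.67, 6.73 and 6.72 in WT (limma adjusted p = 0.26). Qpct, the enzyme that forms N-terminal pyroglutamate, read 3.07, 2.999 and 3.44 in KO, against 2.61, 2.54 and 2.24 in WT, a difference of 0.71 (SE 0.17, limma adjusted p = 0.269). Scg5, the chaperone of the convertase PC2, read 7.38, 7.40 and 7.38 in KO, against 7.12, 7.13 and 6.91 in WT (limma adjusted p = 0.352). For each of the 3 genes all KO values lay above all WT values, as for 4 of the 11 genes and 7.14% of all features. Pam, which amidates the ends of galanin, neuropeptide Y and substance P among others, differed by -0.002 (SE 0.12, limma adjusted p = 0.995).

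Regulators that respond to stimulation and to cyclic AMP included genes with lower values in KO and genes with a wide WT spread. Of the 19 tested, 12 had a higher and 7 a lower mean in KO (39% and 61% of all features), with a median difference of 0.18, which was -0.11 without WT replicate 1. Limma called 0, with 1 higher and 4 lower at an unadjusted p under 0.05, against 3.89% and 8.92% of all features. Fos, Junb and Jun, which encode subunits of AP-1, had the smallest p of the list. The other Fos and Jun genes in it overlapped between the groups. Fosb differed by 0.32 (SE 1.01), Fosl2 by 0.77 (SE 0.74) and Jund by -0.17 (SE 0.22). Fos read -0.27, -0.01 and 0.45 in KO, against 4.59, 4.24 and 2.66 in WT (limma adjusted p = 0.128, and 0.00956 to 0.42 over the alternatives, the lowest with normexp). Junb read -0.98, -1.01 and -1.01 in KO, against -0.14, 1.51 and 1.64 in WT (limma adjusted p = 0.24, and 0.03 to 0.588 over the alternatives, the lowest without WT replicate 1). Jun read 2.43, 2.18 and 2.12 in KO, against 2.81, 2.78 and 3.38 in WT (limma adjusted p = 0.292). In none of Fos, Junb and Jun did the WT arrays run in the order of Gal.

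Oestrogen receptors and genes known to respond to oestrogen in the pituitary were split evenly. Of 8 tested, 4 had a higher and 4 a lower mean in KO (39% and 61% of all features), the median difference was 0.01 (-0.12 to 0.07 over the alternatives), and limma called 0, with 0 also at an unadjusted p under 0.05. Esr1, the oestrogen receptor alpha, read 2.88, 2.76 and 2.80 in KO, against 2.51, 2.67 and 2.34 in WT, without overlap (difference 0.31, SE 0.13, limma adjusted p = 0.39). Cish, a feedback inhibitor of cytokine signalling, read 2.77, 2.81 and 3.02 in KO, against 2.55, 2.90 and 1.57 in WT, and its difference of 0.53 (SE 0.33, limma adjusted p = 0.504) was 0.14 without WT replicate 3 and -0.09 in slide row 2 alone. Greb1, an oestrogen-induced gene, read 3.21, 3.68 and 3.56 in KO, against 2.36, 3.26 and 3.48 in WT, and its difference of 0.45 (SE 0.30, limma adjusted p = 0.527) was 0.12 without WT replicate 1. As for Gal, WT replicate 1 was the lowest array for Greb1, but for Esr1 and Cish it was WT replicate 3.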

How the data were processed

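Per the labels, Cy3-labelled RNA of 6 pituitaries was hybridised to one-colour arrays. The file headers state that Agilent Feature Extraction 11.0.1.1 made the deposited intensity values (gProcessedSignal), which are background-subtracted and not normalized between arrays. The authors' value table holds deposited log2 values of 29154 spots. The submitters' processing notes name limma, but the sources used here do not give how that table was normalized or filtered. It has no row for Nts, Npy or Adcyap1.

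Control spots and outlier-marked spots were left out, log2 intensities of a probe's spots were averaged, and the 75th percentile of each array was taken off. A probe had to lie well above background on 3 or more of the 6 arrays (36739 of 55681), with the brightest per gene. Gene symbols came from the RefSeq table of GRCm38.p6, which names 27656 probes. KO was compared with WT by limma 3.58.1 (R 4.3.3, data.table version 1.17.8; lmFit and eBayes, two-sided, Benjamini-Hochberg) over all 26887 genes and features, without a block. The number of arrays limits the precision. Motifs were searched in Python 3.11.15 (pandas 2.3.3, with figures by matplotlib 3.10.9). Of these steps only the limma fit was tested on simulated data. That simulation gave both groups the same spread and features independent errors, unlike these data, so it does not cover the spreads or correlations.

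The neuropeptide genes and all lists were chosen with earlier results of these data known. Besides them and Kdm4a, the genes named are up to 3 per list with the smallest p, the 3 genes most correlated with each neuropeptide gene (5 for Gal) and markers that moved with one. A gene that this rule names for Tac1 is not reported here. A few others, such as Pdyn, Oxt, Oprm1, Galr2, Pam, Fosb, Fosl2, Jund and the corticotrope markers, were named after their values were seen. Alternatives were normexp (offset 50) on median brightness, quantile normalization, median centring, the authors' table, other filters and probe rules, a variance trend, array weights, blocks for replicate number or slide row, each slide row alone, and leaving out each array.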

Additional observations from a re-analysis of the deposited data

How the results depend on the processing

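The number of features called by limma was 0, and 24 with normexp, 27 in the authors' value table, 11 with probes well above background on all arrays, 27 with a variance trend and robust fit, 7 with array weights, and 0 to 1 when single arrays were left out (1 without WT replicate 1). The number at an unadjusted p under 0.05 was 3445, and 1967 to 5507 over these alternatives, with 2158 and 1967 when KO replicate 2 or 3 was left out and 5507 without WT replicate 2. The cause of these changes was not tested. The difference of Gal was -0.88 in slide row 2 alone, with 1 array of each group and no test, and 0.10 to 2.12 when single arrays were left out. It kept its sign in 19 of 20 alternatives, but this count does not measure stability. Gal has 1 probe, well above background on all 6 arrays. Other filters and probe rules, the variance trend and the blocks could therefore not move its difference from 1.08. Other named genes changed sign: Fshb ran from -0.32 to 1.42 when single arrays were left out (-0.32 without WT replicate 1) and was -2.02 in slide row 2 alone, Cish was -0.09 in row 2 alone, Grp was -0.0155 with normexp and Ntsr1 was 0.0484 with quantile normalization. The number of neuropeptide genes with a higher mean in KO was 5 to 7, and the number without overlap 0 to 4, with 0 under normexp and 1 under quantile normalization and in the authors' table. Deviations of KO and WT arrays with the same replicate number correlated at 0.15, -0.18 and -0.08. Arrays with different numbers gave -0.14 to 0.21. With 3 arrays per group, these values cannot show whether the numbers pair the animals. With the replicate block, Gal differed by 1.08 (SE 0.75), 0 features were called and 2864 had an unadjusted p under 0.05. Dim probes limit Vip, Nts, Tac1, Npy and Adcyap1.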

Other observations

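Among the regulators that respond to stimulation, WT replicate 1, the array with the lowest Gal, was the lowest WT array for 13 of 19 genes, against 31.1% of all features. Nr4a1, an orphan nuclear receptor induced by cyclic AMP, read 6.76, 7.16 and 5.90 in KO, against 2.87, 7.04 and 8.09 in WT. Its relative Nr4a2 read 3.997, 5.74 and 4.57 in KO, against 0.95, 4.29 and 5.31 in WT. In both, WT replicate 1 stood apart below the other 5 arrays, as it did for Gal, but WT replicate 3 was the highest WT array, while for Gal it was WT replicate 2. Crem, which encodes cyclic AMP response element modulators, read 2.25, 2.40 and 2.40 in KO, against 1.33, 2.32 and 1.97 in WT, in the same WT order as Gal. The median standard deviation of the 19 genes was 0.30 in KO and 0.89 in WT. These genes were picked for this description after their values were seen, and the values carry no test.

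Kiss1, the kisspeptin precursor, also split the WT arrays: it read -1.41, -1.55 and -1.56 in KO, against -2.72, 0.39 and 0.52 in WT. The receptor gene Cckar, for cholecystokinin, read -3.58, -2.61 and -3.05 in KO, against -3.06, -2.11 and -0.31 in WT, with the highest value in WT replicate 3, the array with the lowest Cck. Cckbr, the other cholecystokinin receptor gene, went the other way. It read 0.29, -0.10 and 0.78 in KO, against 0.07, 0.65 and -1.11 in WT, lowest in WT replicate 3. Kiss1 and Cckar were picked after their values were seen, and the values carry no test.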
